A study of Mus musculus with 8 samples.

Results

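The genes described here are 7 transcripts known as markers of the mouse 2-cell embryo, Zscan4c, Zscan4d, Zscan4e, Zscan4f, Tcstv1, Tcstv3 and Zfp352. They were taken by symbol, and all 7 were found among the 23234 genes listed in each library. Embryos were measured by RNA-seq in 8 libraries, 2 in each of 4 groups set by the genotype of the oocyte (wild-type or Tet3-null) and the stage (2-cell or blastocyst). Wild-type oocytes came from f/f females, whose Tet3 alleles are both floxed, and the labels do not say whether these females carried Cre. Tet3-null oocytes (labelled CKO) came from f/- females with Zp3-Cre, a transgene driven by a zona pellucida promoter that is active in growing oocytes. All oocytes were collected from superovulated females and fertilized in vitro with CAST/EiJ sperm, so that embryos of every group received a paternal genome, and a Tet3 allele, of that strain. The 2-cell libraries were pools of 10 embryos at 30 h after fertilization, and the blastocyst libraries pools of 7 at 96 h. Ages of the females and separate collections are not given in the labels, so p-values measure the spread between these pools, which may be technical. Values are FPKM, fragment counts scaled to gene length and to the mapped fragments of the library, as the authors deposited them.

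Zscan4 genes encode proteins with a SCAN domain and zinc fingers. They are transcribed in a burst when the zygotic genome is activated at the 2-cell stage, and in a small and changing share of embryonic stem cells, where Zscan4 protein is known for lengthening telomeres and protecting the genome. Tcstv1 and Tcstv3 encode small proteins of the 2-cell stage that have also been linked to telomere length in embryonic stem cells, and Zfp352 encodes a zinc finger protein. Tet3, supplied by the oocyte, converts 5-methylcytosine of the zygote's DNA into oxidized forms, and loss of all Tet enzymes is known to raise Zscan4 in embryonic stem cells. The comparison here asks whether embryos that lacked Tet3 from the oocyte differ in these transcripts.

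The close copies in the Zscan4 cluster on chromosome 7 share their upstream DNA, shown here because the copies are measured as separate rows. RefSeq windows (GRCm38.p6, not the mm9 build of the FPKM values) were at hand for Zscan4c, Zscan4d, Zscan4f and Zfp352 among the 7 genes. No sequence is shown for Zscan4e, Tcstv1 and Tcstv3. The 250 bases before the gene start of Zscan4c lie at chr7:11005495-11005744 on the plus strand, those of Zscan4d at chr7:11166149-11166398 on the minus strand and those of Zscan4f at chr7:11397665-11397914 on the plus strand. Each is printed 5′ to 3′ in the direction of its gene, with matches to TATAAA, the TATA box, in capitals.
Zscan4c: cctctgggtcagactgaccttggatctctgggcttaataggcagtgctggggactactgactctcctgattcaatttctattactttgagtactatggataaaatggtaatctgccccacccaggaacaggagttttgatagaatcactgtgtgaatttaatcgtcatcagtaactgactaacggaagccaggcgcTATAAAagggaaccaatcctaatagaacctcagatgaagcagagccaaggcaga
Zscan4d: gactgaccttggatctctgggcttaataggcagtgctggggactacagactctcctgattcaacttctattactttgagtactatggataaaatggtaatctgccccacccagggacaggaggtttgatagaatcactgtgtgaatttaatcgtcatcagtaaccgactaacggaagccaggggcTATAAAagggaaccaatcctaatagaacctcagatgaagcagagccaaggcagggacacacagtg
Zscan4f: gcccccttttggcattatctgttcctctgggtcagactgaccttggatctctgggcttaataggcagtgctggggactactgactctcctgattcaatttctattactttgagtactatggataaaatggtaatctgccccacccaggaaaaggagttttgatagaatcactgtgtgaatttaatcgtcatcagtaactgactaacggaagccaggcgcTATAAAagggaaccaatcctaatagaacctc
The windows are offset because the annotated gene starts differ. Where they overlap, 226 of 227 bases were identical between Zscan4c and Zscan4f (99.6%), 232 of 239 between Zscan4c and Zscan4d (97.1%) and 209 of 216 between Zscan4d and Zscan4f (96.8%). The match to TATAAA begins 54 bases before the gene start of Zscan4c, 65 before that of Zscan4d and 31 before that of Zscan4f. A match on either strand was present in 12.4% of the 32851 RefSeq windows of 250 bases.

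The window of Zfp352, at chr4:90218570-90218819 on the plus strand, looked different and is shown for its repeats. Capitals mark TAATCC, the core motif of bicoid-type homeobox factors.
Zfp352: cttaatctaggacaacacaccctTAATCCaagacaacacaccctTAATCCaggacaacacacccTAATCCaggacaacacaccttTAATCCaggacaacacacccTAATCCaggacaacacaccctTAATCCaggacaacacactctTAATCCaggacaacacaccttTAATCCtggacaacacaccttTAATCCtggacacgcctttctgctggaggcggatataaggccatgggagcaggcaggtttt
It held 9 matches to TAATCC, all on the strand of the gene, with starts from 227 to 61 bases before the gene start. Of the 32851 windows, 6.25% held at least 1 match on either strand, 9 was the most in any window, and 1 window, that of Zfp352, had as many. TAATCC was in none of the 3 Zscan4 windows printed above, and TATAAA was not in the window of Zfp352. GGGCGG (the GC box, in 32.7% of all windows), TGCACAC (in 3.67%) and TGATTNAATCA (the DUX core, in 0.0304%) were found in none of these 4 windows. Both strands were searched and a site read on both was counted once; these motifs did not overlap in the windows printed. A match describes letters and does not show that a factor binds there.

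Sequence sharing extends to the transcripts and sets how far the rows can be told apart. In the GENCODE M21 transcripts (GRCm38), the longest transcripts of Zscan4c, Zscan4d, Zscan4e and Zscan4f were 94.1% to 97.5% identical to each other where they align, and those of Tcstv1 and Tcstv3 83.4%. Of all 50-base stretches, 95.3% of Zscan4f, 91.6% of Zscan4e and 85.5% of Zscan4c, but 49.6% of Zscan4d, also occur in another gene, other Zscan4 copies among them. The share was 31.4% for Tcstv3, 16.8% for Tcstv1 and 7.09% for Zfp352. With 100-base stretches it was 89.5%, 84.1%, 72.8% and 29.6% for the Zscan4 genes in the same order, and 7.79%, 4.06% and 0.643% for the other 3. How shared reads were treated is not given in the sources used here, nor is the read length, so family sums are reported beside the single rows. A sum too can be changed by reads counted at several copies or at none.

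**Figure D1:**
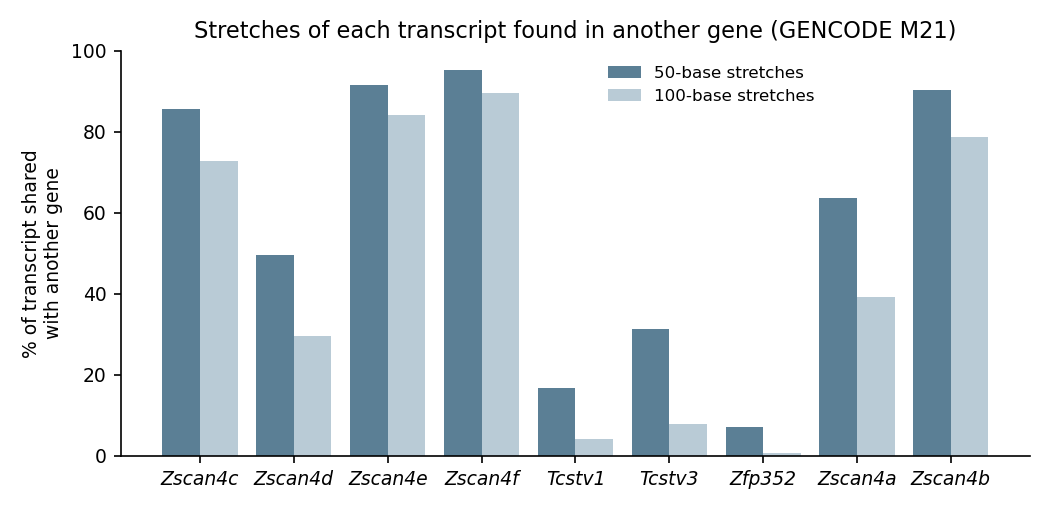
Share of 50-base (dark bars) and 100-base (light bars) stretches of the longest GENCODE M21 transcript of each gene that also occur in another gene, in percent. Zscan4f has the highest share at 95.3% and Zfp352 the lowest at 7.09% for 50-base stretches; Zscan4a and Zscan4b are related rows outside the 7 genes.

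The 2 libraries of a group correlated across all listed genes on the log2(FPKM + 1) scale (Pearson's r 0.959 for the Tet3-null 2-cell pair and 0.974 to 0.984 for the others; genes are not independent replicates). Tet3-null 2-cell replicate 2 stood apart by the number of genes listed at 0, 7101 against 5549 to 6080 in the other 2-cell libraries, and results at that stage are given with and without it. Both Tet3-null 2-cell libraries had fewer genes at 1 FPKM or more, 10976 and 10954, than both wild-type ones, 11660 and 11576. Leaving out replicate 2 does not remove that difference, and its part in the results was not tested. Tet3 itself was at 10.8 and 7.54 FPKM in wild-type 2-cell embryos and at 3.28 and 4.41 in Tet3-null ones (log2 change -1.06, limma adjusted p = 0.069). FPKM over the whole gene includes any part the deletion leaves and transcripts of the sperm allele. All 8 oocyte markers checked were at 1 FPKM or more in every 2-cell library and summed to 1526 to 1804 FPKM in wild-type, 1817 in Tet3-null replicate 1 and 2415 in replicate 2, against 32.5 to 40.8 in blastocysts. The 6 trophectoderm markers summed to 66.5 to 85.3 FPKM in 2-cell libraries and to 3055 to 4949 in blastocysts. Of 8 cumulus and granulosa markers, 1 reached 1 FPKM in each 2-cell library and none did in blastocysts. No blood marker of 5 reached 1 FPKM in any library, and of 6 sperm markers 1 to 3 did, with sums of 7.71 and 6.66 FPKM in wild-type against 12.5 and 21.3 in Tet3-null 2-cell libraries.

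At the 2-cell stage Tcstv and Zfp352 transcripts were more abundant than those of any Zscan4 copy, in all 4 libraries. Tcstv1, at 359 ± 52.5 FPKM (SD, n = 2), and Zfp352, at 361 ± 23.0, were the highest in wild-type, followed by Tcstv3 at 259 ± 42.0. Among the Zscan4 copies Zscan4d led at 94.4 ± 24.2 FPKM, then Zscan4f at 61.1 ± 20.6, Zscan4c at 33.6 ± 9.32 and Zscan4e at 0.720 ± 0.315. Tcstv1 was thereby among the top 1.09% and 1.52% of listed genes in the 2 wild-type libraries, Zscan4d among the top 3.74% and 5.47%, and Zscan4e at ranks 11829 and 13246 of 23234. The order Zscan4d, Zscan4f, Zscan4c, Zscan4e was the same in all 4 libraries of the stage. Among neighbours in the wild-type order, Tcstv1 and Zfp352 overlapped between libraries and the others did not. In Tet3-null embryos the means were 124.5 ± 36.2 FPKM for Zscan4d, 73.3 ± 23.4 for Zscan4f, 44.4 ± 14.4 for Zscan4c and 1.75 ± 0.104 for Zscan4e. The other means of that group were 559 ± 81.4 for Tcstv1, 498 ± 202 for Zfp352 and 381 ± 33.0 for Tcstv3. A pool does not tell whether a higher level comes from more blastomeres with the transcript or from more RNA in each.

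**Figure D2:**
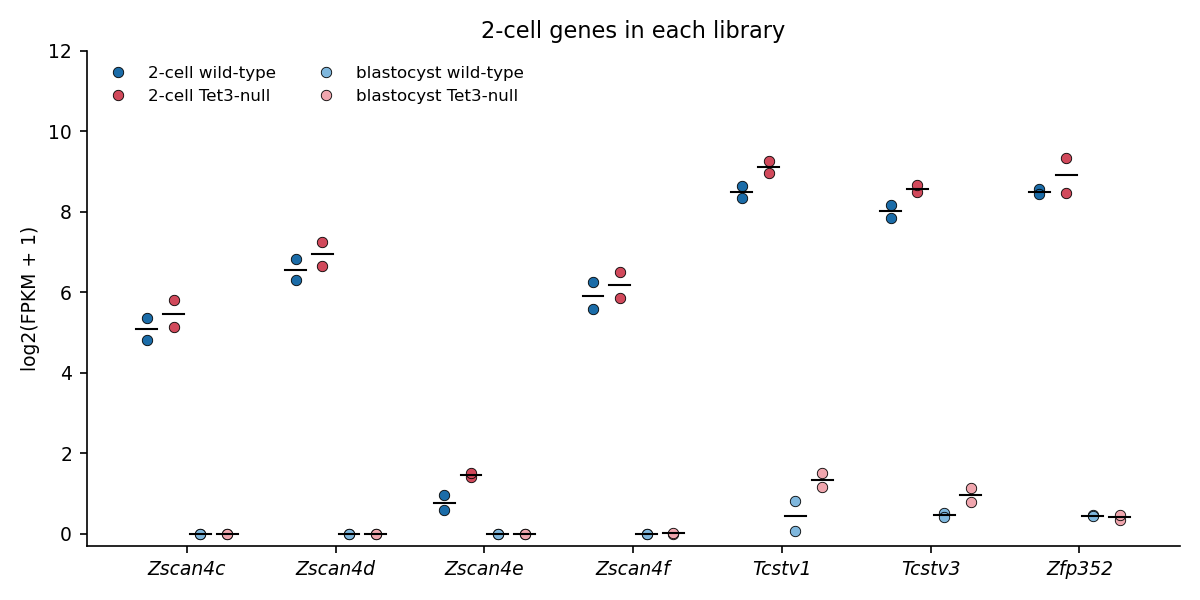
log2(FPKM + 1) of the 7 genes (vertical axis) in each of the 8 libraries; points are single libraries, coloured by group, and short lines are group means. The 2-cell libraries lie far above the blastocyst libraries for 6 genes, and Zscan4e is low throughout, with means of 0.720 FPKM in wild-type and 1.75 FPKM in Tet3-null 2-cell embryos.

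Zscan4 transcripts other than Zscan4e, and the sum of the 4 copies, did not cleanly separate the genotypes at the 2-cell stage in FPKM as deposited. Zscan4d, the most abundant copy in these embryos, was at 111 and 77.3 FPKM in wild-type and at 99.0 and 150.1 in Tet3-null. The groups overlapped, since Tet3-null replicate 1 lay between the wild-type libraries and only replicate 2 was above both. Zscan4f was at 75.7 and 46.5 FPKM in wild-type and at 56.8 and 89.9 in Tet3-null, and Zscan4c at 40.2 and 27.0 against 34.2 and 54.6, with the same order of libraries. The sum of the 4 copies was 228 and 151 FPKM in wild-type against 192 and 296 in Tet3-null, a ratio of means of 1.29 with overlapping groups. On the log2 scale the difference of the sums was 0.36, and 0.04 to 0.67 with 1 library left out (lowest without Tet3-null replicate 2, highest without Tet3-null replicate 1). It was 0.64 with median-of-ratios scaling, which moves the median of all genes to near 0, and the groups still overlapped. Under that scaling the groups did not overlap for Zscan4d and did for Zscan4c and Zscan4f. In limma, a linear model fitted to log2(FPKM + 1) of all genes, the log2 change was 0.39 for Zscan4d (SE 0.25, 95% interval -0.21 to 0.99, adjusted p = 0.389). It was 0.38 for Zscan4c (interval -0.27 to 1.03, adjusted p = 0.432) and 0.26 for Zscan4f (interval -0.43 to 0.95, adjusted p = 0.622). These intervals include both no change and an increase of nearly 1 on the log2 scale. They rest on a spread shared with the blastocyst libraries, where these copies were at or near 0. In the 2-cell libraries alone the SE was 0.31, 0.34 and 0.36 for Zscan4d, Zscan4c and Zscan4f (limma adjusted p = 0.596, 0.629 and 0.758). Without Tet3-null replicate 2 the log2 changes were 0.09, 0.05 and -0.06, and without Tet3-null replicate 1 they were 0.69, 0.71 and 0.59. Zscan4f was also at -0.08 without wild-type replicate 2.

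Zscan4e, annotated by RefSeq as a pseudogene, was the weakest copy. In FPKM as deposited it was the only one whose genotype groups did not overlap at the 2-cell stage. It was at 0.943 and 0.497 FPKM in wild-type and at 1.67 and 1.82 in Tet3-null 2-cell embryos, and listed at 0 in all 4 blastocyst libraries. Both Tet3-null libraries were above both wild-type ones, with a ratio of means of 2.43 and a log2 change of 0.69 (SE 0.18, 95% interval 0.26 to 1.11). The limma adjusted p of 0.0851 did not pass 0.05. It passed under quantile normalization (adjusted p = 0.049, log2 change 1.03), where 1.46% of all genes were called. The spread in this test is shared with the blastocyst libraries, all at 0 for Zscan4e. In the 2-cell libraries alone the SE was 0.21 (limma adjusted p = 0.389). Zscan4e met the expression minimum, at least 1 FPKM in at least 2 libraries, only through the Tet3-null 2-cell libraries. Under that minimum it could be tested only because it was high there, and it could not be tested without either of them. With no filter its log2 change was again 0.69 (limma adjusted p = 0.0766). Its share of the 4-copy sum was 0.413% and 0.328% in wild-type against 0.873% and 0.614% in Tet3-null, and 91.6% of its 50-base stretches occur in other genes. Whether reads of more abundant copies enter its row was not tested.

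The 2 other Zscan4 rows in the files did not add to a difference. Zscan4a, a transcribed pseudogene in RefSeq, was at 47.9 and 38.0 FPKM in wild-type against 36.2 and 66.5 in Tet3-null (log2 change 0.20, adjusted p = 0.714). Zscan4b was at 12.7 and 8.51 against 8.44 and 11.6 (log2 change -0.07, adjusted p = 0.898), and its sign turned to 0.19 under median-of-ratios scaling, to 0.15 under quantile normalization, and to 0.14 and 0.20 without Tet3-null or wild-type replicate 1. Zscan4a turned to -0.23 without Tet3-null replicate 2. With both rows added, the Zscan4 sum was 289 and 198 FPKM in wild-type against 236 and 375 in Tet3-null.

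The Tcstv pair lay higher in both Tet3-null 2-cell libraries than in both wild-type libraries, but neither gene passed the test. Tcstv1 was at 397 and 322 FPKM in wild-type and at 501 and 616 in Tet3-null. Tcstv3 was at 289 and 229 FPKM in wild-type and at 358 and 404 in Tet3-null. The groups did not overlap for either gene. Their sum was 685 and 551 FPKM against 859 and 1021, a ratio of means of 1.52. Some 50-base stretches of both also occur in genes under other symbols, Gm20767 and Gm21818 among them, which were not added to this sum. For Tcstv1 the log2 change was 0.64 (SE 0.28, 95% interval -0.02 to 1.29, limma adjusted p = 0.224), and for Tcstv3 it was 0.56 (SE 0.19, 95% interval 0.12 to 1.01, adjusted p = 0.139). In the 2-cell libraries alone the limma adjusted p was 0.390 for Tcstv1 and 0.396 for Tcstv3. Without Tet3-null replicate 2 the log2 changes were 0.49 and 0.47, so the direction did not rest on the library that stood apart.

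Zfp352 was at 377 and 344 FPKM in wild-type and at 355 and 641 in Tet3-null 2-cell embryos. Tet3-null replicate 1 lay between the wild-type libraries and replicate 2 was above both. With median-of-ratios scaling the log2 change was 0.68 (limma adjusted p = 0.232) and the groups did not overlap. As deposited, the log2 change was 0.40 (SE 0.27, 95% interval -0.22 to 1.03, adjusted p = 0.391). It rested on replicate 2: without it the log2 change was -0.02 (adjusted p = 0.963), and without replicate 1 it was 0.83 and passed the test (adjusted p = 0.0135), in a fit that called 25.7% of all genes. The oocyte and sperm marker sums were also highest in that library, at 2415 and 21.3 FPKM, and their part in the results at this stage was not tested.

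**Figure D3:**
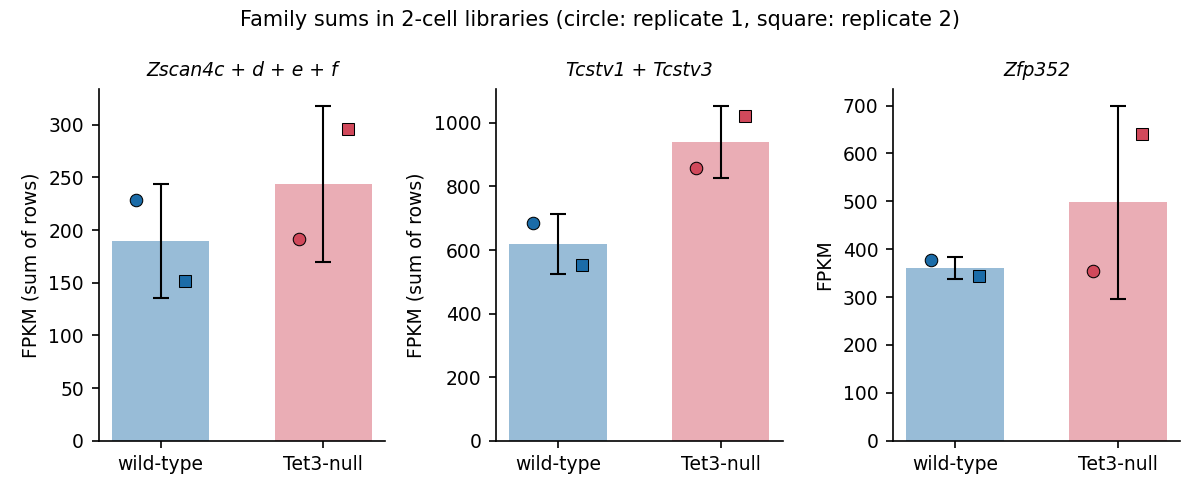
FPKM of the Zscan4 sum of 4 copies, the Tcstv sum of 2 and Zfp352 in 2-cell libraries; bars are means, error bars SD of 2 libraries, circles replicate 1 and squares replicate 2. Tet3-null replicate 2 is the highest library in each panel, and only in the Tcstv panel are both Tet3-null libraries, at 859 and 1021 FPKM, above both wild-type libraries.

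Set against all genes tested, the 7 genes leaned upward in Tet3-null 2-cell embryos without a single call. None of the 7 was called by limma at an adjusted p of 0.05, where 2.72% of 13549 genes were called in either direction, 0.613% higher and 2.1% lower. Of those calls 22.6% were higher, against 56.5% with median-of-ratios scaling and 47.5% with quantile normalization. At an unadjusted limma p under 0.05, 2 of the 7 were higher, Zscan4e and Tcstv3, where 5.36% of all genes were. In 3 of the 7, Zscan4e, Tcstv1 and Tcstv3, both Tet3-null libraries were above both wild-type libraries, as in 12.6% of all genes. The log2 change was above 0 in 7 of 7, against 32.4% of all genes, with a median of 0.40 against -0.17. Zscan4e met the expression minimum only because it was higher in Tet3-null, and without it the counts are 1 and 2 of 6. The genes share sequence and were chosen with earlier results known, so the counts are a description. Without Tet3-null replicate 2, 4 of the 6 that could be tested were above 0 (median 0.07), and without wild-type replicate 2, 6 of 7 (median 0.34). With median-of-ratios scaling, which moves the median of all genes to near 0, the median of the 7 was 0.68, none was called, and the groups did not overlap for 5 of 7, Zscan4d and Zfp352 being added. Over all genes both Tet3-null libraries were then the higher ones in 24.4%, and the log2 change was above 0 in 51.6%.

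**Figure D4:**
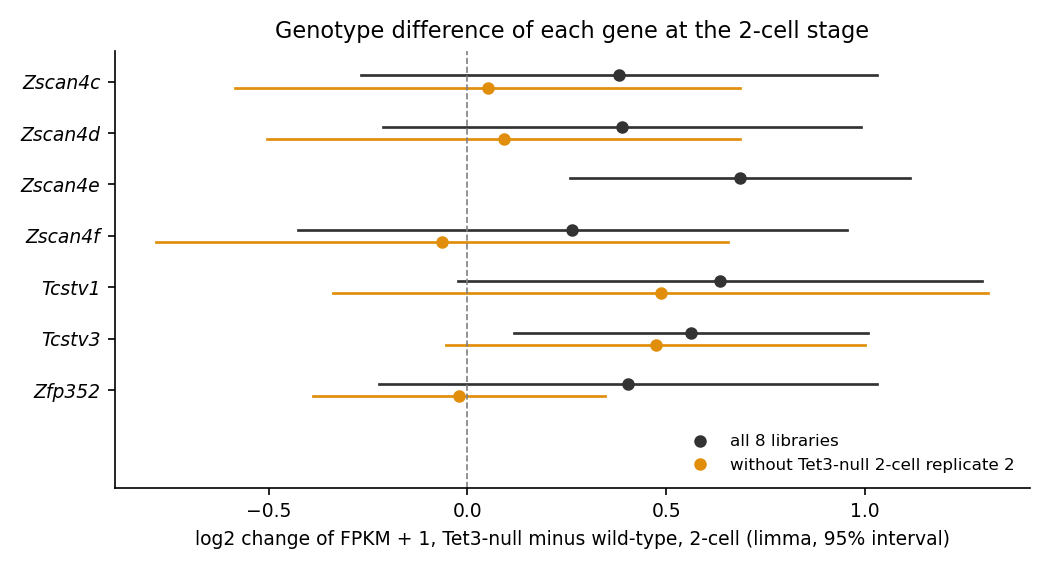
Log2 change of FPKM + 1 between Tet3-null and wild-type 2-cell embryos for each gene (horizontal axis), with limma's 95% interval, over all 8 libraries (black) and without Tet3-null 2-cell replicate 2 (orange). The points of Tcstv1 and Tcstv3 stay near 0.49 and 0.47 without that library, those of the other genes shown move to between -0.06 and 0.09, and Zscan4e could not be tested without it.

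In blastocysts the Zscan4 transcripts were listed at or near 0, and Tcstv and Zfp352 were at low levels. Zscan4c, Zscan4d and Zscan4e were listed at 0 in all 4 libraries and Zscan4f was at 0.0117 FPKM in 1 of them, Tet3-null replicate 2. Tcstv1 was at 0.759 and 0.0447 FPKM in wild-type and at 1.23 and 1.86 in Tet3-null blastocysts. Tcstv3 was at 0.433 and 0.339 FPKM in wild-type and at 0.732 and 1.18 in Tet3-null. Both Tet3-null libraries were above both wild-type libraries for each of these 2 genes, as in 19% of all genes. The log2 change was 0.90 for Tcstv1 (SE 0.28, 95% interval 0.24 to 1.56, limma adjusted p = 0.706) and 0.49 for Tcstv3 (SE 0.19, 95% interval 0.04 to 0.93, adjusted p = 0.874). At these low levels the size depends on the pseudocount, and with 0.1 in place of 1 it was 2.2 for Tcstv1 and 1.09 for Tcstv3. Tcstv1 was at 0.52 without wild-type replicate 2, and Tcstv3 at 0.32 without Tet3-null replicate 2. Zfp352 was at 0.369 and 0.346 FPKM in wild-type and at 0.265 and 0.380 in Tet3-null, with overlapping groups. None of the 7 genes was called, where 0.0664% of all genes were, and 2 were at an unadjusted limma p under 0.05, Tcstv1 and Tcstv3, where 1.89% of all genes were higher. The 6 trophectoderm markers summed to 4949 and 4618 FPKM in wild-type and to 3381 and 3055 in Tet3-null blastocysts, and the 5 inner cell mass markers to 231 and 239 against 262 and 270.1. The part of these markers in the result was not tested. Read totals are unknown, so the precision of values this low cannot be given.

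From the 2-cell stage to the blastocyst all 7 genes fell in both genotypes. The ratio of 2-cell to blastocyst means was 1009 in wild-type and 1545 in Tet3-null for Zfp352, 894 and 361 for Tcstv1, and 671 and 398 for Tcstv3. No ratio is given for the Zscan4 genes, which in blastocysts were listed at 0 except Zscan4f in 1 Tet3-null library. Zscan4d fell by 6.55 on the log2(FPKM + 1) scale in wild-type (limma adjusted p = 1.56e-06) and by 6.94 in Tet3-null (1.04e-06). Zfp352 fell by 8.06 and 8.50 on that scale, and Zscan4e, the weakest, by 0.77 (adjusted p = 0.00636) and 1.46 (0.000255). The background is large here, since 38.4% of genes in wild-type and 35.1% in Tet3-null were called lower in blastocysts. The genes are known for this pattern, the Zscan4 genes and Zfp352 met the expression minimum only through 2-cell libraries, and libraries at 0 add no spread to the test, so the counts are not support for it. All 7 genes were higher in both 2-cell libraries than in both blastocyst libraries of a genotype, as were 46.3% of all genes in wild-type and 41.3% in Tet3-null. Between the 2 highest groups the Zscan4 sum and Zfp352 overlapped and the Tcstv sum did not. Between the 2 lowest groups the Tcstv sum, at 1.19 and 0.384 FPKM in wild-type against 1.97 and 3.04 in Tet3-null, also did not overlap.

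The genotype difference at the blastocyst stage minus that at the 2-cell stage was not called for any of the 7 genes, where 0.14% of all genes were. It was at an unadjusted limma p under 0.05 for 1 of them, Zscan4e (-0.69, 95% interval -1.29 to -0.08, adjusted p = 0.303), as for 14.4% of all genes in either direction. Zscan4e is listed at 0 in blastocysts, so this value is its 2-cell difference with the sign turned, the difference through which it met the expression minimum. For Tcstv1 it was 0.26 (interval -0.67 to 1.20, adjusted p = 0.798), for Tcstv3 -0.07 (interval -0.70 to 0.56, adjusted p = 0.931) and for Zfp352 -0.44 (interval -1.33 to 0.44, adjusted p = 0.620). With a pseudocount of 0.1 the values were 1.56 for Tcstv1 and 0.53 for Tcstv3, whose sign thereby turned. Tcstv1 was at -0.11 without wild-type blastocyst replicate 2, and Tcstv3 turned to between 0.01 and 0.09 without Tet3-null 2-cell replicate 2, wild-type 2-cell replicate 2 or Tet3-null blastocyst replicate 1. Without Tet3-null 2-cell replicate 1 the value for Zfp352 was -0.87 and passed the test (adjusted p = 0.0382), in a fit that called 12.8% of all genes.

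Regulators of the 2-cell program and other genes of the stage were read from 4 lists. Their counts stand beside 0.613% of all genes called higher and 2.1% called lower. Of 27 other 2-cell-stage genes tested, none was called higher and 1 lower in Tet3-null 2-cell embryos, with a median log2 change of -0.03 against -0.17 for all genes. The lower one was Zfp42, a zinc finger gene of pluripotent cells (REX1), at 28.1 and 24.8 FPKM in Tet3-null against 42.3 and 50.8 in wild-type (log2 change -0.79, adjusted p = 0.0435). Zfp42 went against the list's label, since wild-type blastocysts held more of it, 230 and 229 FPKM. Eif1a and Tbx3 of this list were also higher in wild-type blastocysts than in wild-type 2-cell embryos. The list's other tested genes were lower in wild-type blastocysts. Although the list's median was below 0, some of its genes leaned upward as far as the 7 genes did, uncalled. Gm8300, Gm2022, BB287469, Gm2016 and Gm5662 were at 0.84, 0.69, 0.68, 0.67 and 0.55, each highest in Tet3-null replicate 2. An upward lean was thus not particular to the 7 genes. Of 9 genes known to activate the program in embryonic stem cells, none was called higher and 1 lower (median -0.11): Gata2, a transcription factor that has been linked to activation of MERVL elements, at 8.59 and 6.73 FPKM against 31.7 and 28.8 (log2 change -1.86, adjusted p = 0.00839). Dux, the homeobox activator of Zscan4 in embryonic stem cells, was at 1.15 and 2.16 FPKM against 0.967 and 2.40 (adjusted p = 0.996). The largest upward change among the activators, uncalled, was that of Nelfa (listed as Whsc2). It was at 23.3 and 31.4 FPKM in Tet3-null against 18.0 and 14.3 in wild-type (log2 change 0.72, limma adjusted p = 0.108). Of 26 genes known to repress the program, none was called (median -0.21). The most abundant were Sumo2, the small ubiquitin-like modifier, at 595 and 321 FPKM in Tet3-null against 503 and 596 in wild-type (adjusted p = 0.492), and Hdac1, a histone deacetylase, at 154 and 129 against 161 and 183 (adjusted p = 0.274). Of 29 telomere maintenance genes, none was called higher and 1 lower (median -0.27): Mre11a, the nuclease of the complex that senses DNA breaks, at 2.23 and 1.75 FPKM against 5.27 and 4.54 (log2 change -0.98, adjusted p = 0.0471). In blastocysts no member of these lists was called, and the medians were 0.01, 0.05, -0.06 and 0.03 in the order given. The calls of Zfp42 and Mre11a held with a pseudocount of 0.1 and without Tet3-null 2-cell replicate 1. They were lost with median-of-ratios scaling (adjusted p = 0.103 and 0.0873), quantile normalization (0.0646 and 0.0817), the replicate block (0.0812 each), the 2-cell libraries alone (0.376 and 0.378) and any other library left out (0.0596 to 0.159), and that of Mre11a also with no filter (0.0619). The call of Gata2 was lost in the 2-cell libraries alone (0.376) and without any 1 of the 4 wild-type libraries (0.0568 to 0.0713). Medians at the 2-cell stage were 0.21, 0.16, 0.04 and -0.07 with median-of-ratios scaling, and the median of the activators turned to 0.12 without Tet3-null replicate 2.

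Genes with the most similar profile over the 8 libraries were sought by the root mean square difference of log2(FPKM + 1), each profile centred on its own mean. For the Zscan4 sum these were Wee2, an oocyte kinase that holds the meiotic arrest, Gm13023, Gm1965, Gm839 and Pkd2l2, a member of the polycystin channel family, at differences of 0.134 to 0.196. For Zfp352 they were Gm10436, Trim61, Rfpl4b, Gm839 and Ccdc82, at 0.073 to 0.257, and for the Tcstv sum Gm839, Rfpl4b, Gm10436, Trim61 and Tcl1b5, of the Tcl1 family, at 0.404 to 0.462. The profile nearest to Zfp352, that of Gm10436, was at 263 and 234 FPKM in wild-type against 273 and 462 in Tet3-null 2-cell embryos, again highest in Tet3-null replicate 2. Wee2 was at 224 and 191 FPKM in wild-type against 226 and 283 in Tet3-null. All 5 genes nearest to the Tcstv sum also had both Tet3-null 2-cell libraries above both wild-type ones. Tcl1b5, for instance, was at 206 and 173 FPKM in wild-type against 294 and 273 in Tet3-null. These genes were picked on the same libraries. The 8 libraries fall into 2 stages, and the likeness, a description, mostly follows the difference between them.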

How the data were processed

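The deposited values are FPKM, made by the authors; the submitters' processing notes name Cufflinks 2.2.0, Bowtie2 2.1.0, TopHat2 2.0.10 and the mm9 build. Settings, annotation and how shared reads were handled: not given in the sources used here. Per the labels' protocols, lysed embryos were made into amplified cDNA with a SMARTer kit, sheared and prepared with a kit for DNA. Summed FPKM was 600495 to 956335 per library; read totals are unknown. FPKM are not counts, so limma 3.58.1 (R 4.3.3) was fitted to log2(FPKM + 1) for 13549 genes, those that reached 1 FPKM in 2 or more libraries. The model held 4 group means over all 8 libraries, with variances moderated along the mean level (residual degrees of freedom 4, prior 3.07). Two-sided p-values had Benjamini-Hochberg adjustment over all genes tested. The fit was tested on simulated data with planted log2 changes of 1 and 2. These are larger than the genotype changes of the 7 members in the main fit, so smaller changes were not tested. With 2 libraries a group, permutations could not give a p of 0.05, and none were run. Family sums carry no test. The members, lists, motifs and rules were chosen with earlier results of these data known. Named genes were the 7 members, other Zscan4 rows, Tet3, up to 4 called members of each list at the 2-cell stage (with none called, the 2 most abundant) and the 5 nearest profiles per family. Dux, Nelfa, Eif1a, Tbx3, Gm8300, Gm2022, BB287469, Gm2016 and Gm5662 were added after their values were seen. The lists held 37, 10, 26 and 30 entries, of which 29, 9, 26 and 29 matched a listed gene, some by a RefSeq synonym. Alternatives were a pseudocount of 0.1, no filter, median-of-ratios scaling, quantile normalization, the compared groups alone, a replicate block and each library left out.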

Additional observations from a re-analysis of the deposited data

How the results depend on the processing

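The number of genes called between genotypes at the 2-cell stage was 368, and it was 243 with a pseudocount of 0.1, 147 with median-of-ratios scaling, 198 with quantile normalization, 3 in the 2-cell libraries alone, 31 with the replicate block and 10 to 3438 when 1 library was left out (3438 without Tet3-null 2-cell replicate 1). Of the 7 genes 0 were called, against 1 with quantile normalization (Zscan4e) and 0 to 1 when 1 library was left out (Zfp352 without Tet3-null 2-cell replicate 1). The difference between stages had 19 calls, 35 with no filter and 8 to 1714 with 1 library left out, with 0 to 1 of the 7 genes. In the fits that leave 1 library in a group, that library is assumed to vary like the other groups. In the 2-cell libraries alone the SE of the genotype change was larger than in the main fit for the Zscan4 genes and Zfp352 (0.33 for Zfp352). It was smaller for Tcstv1 (0.20) and Tcstv3 (0.18), but their limma adjusted p was 0.390 and 0.396, against 0.224 and 0.139 in the main fit. The log2 difference of the Tcstv sum at the 2-cell stage, 0.61, was 0.89 with median-of-ratios scaling. Those of the Zscan4 sum, 0.36, and of Zfp352, 0.40, were 0.64 and 0.68 with that scaling. The log2 difference of Zfp352 at that stage, 0.40, was -0.020 to 0.83 with 1 library left out (-0.020 without Tet3-null replicate 2). In blastocysts it was -0.04, and -0.10 to 0.024 with 1 library left out (0.024 without Tet3-null replicate 1). That of the Zscan4 sum in blastocysts was 0.0084, and 0.00 to 0.017 with 1 library left out. The cause was not tested in any of these. All 96 values of the 7 genes for the fall to the blastocyst stayed called, in each genotype. This is not support for the fall, since the Zscan4 genes and Zfp352 met the expression minimum only through 2-cell libraries, and values at 0 add no spread. In the main fit 38.4% of all genes in wild-type and 35.1% in Tet3-null were called lower in blastocysts. No shift shared by libraries of the same replicate number was seen: correlations of replicate differences between groups were -0.076 to 0.018. This does not show whether samples were collected or processed in pairs, which the labels do not give. With the replicate block none of the 7 genes was called between genotypes at either stage, the blastocyst calls stayed at 9 and the stage difference had 13.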

Other observations

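Some ratios between copies were close to constant over the 2-cell libraries and others were not. In the 4 2-cell libraries Zscan4d was 2.75 to 2.90 times Zscan4c, and Tcstv1 was 1.37 to 1.52 times Tcstv3, in both genotypes. Of the 50-base stretches, 85.5% of Zscan4c and 49.6% of Zscan4d occur in another gene. The part of shared reads in the ratios between copies was not tested. Zscan4d was 118 and 156 times Zscan4e in wild-type and 59.2 and 82.5 times in Tet3-null, and 8.79 and 9.09 times Zscan4b in wild-type and 11.7 and 13.0 times in Tet3-null. In these last 2 ratios the genotypes did not overlap, in opposite directions; both were picked after their values were seen and neither was tested. Zfp352 was 3.38 and 4.45 times Zscan4d in wild-type and 3.59 and 4.27 times in Tet3-null, so the 2 genotypes overlapped although the level of each gene was highest in Tet3-null replicate 2. Tcstv1 was 3.56 and 4.17 times Zscan4d in wild-type and 5.07 and 4.11 times in Tet3-null.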
